A study of Mus musculus with 45 samples.

Results

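The comparison set 11 oocytes from reconstituted follicles (YY) against 8 oocytes of young mice that had not been cultured (in vivo young), 19 of the 45 libraries of the series, chosen by their titles. In a YY follicle a young oocyte was put into a young follicle emptied of its own oocyte, and the whole was then cultured. The difference between the groups therefore holds the culture and the reconstitution together. The cells are mouse oocytes, each lysed and sequenced on its own from total RNA, and no allele, agent, strain, mouse age, culture time or meiotic stage is given in the labels used here. A further 8 libraries of young oocytes that were cultured in vitro (in vitro young) shared the fit and are set beside the comparison where they bear on it.

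A growing oocyte stores messenger RNA and protein for the first divisions of the embryo. It secretes the zona pellucida, the coat that sperm bind, and the growth factors GDF9 and BMP15 that direct the granulosa cells around it. Under the cortex it builds the subcortical maternal complex, an assembly that the embryo needs to pass the first cleavages. Transcription falls silent near full size, so the level of a messenger RNA in a grown oocyte reflects synthesis, storage and decay together.

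Total counts were 418703 to 2201980 per library over the 19 libraries, with means of 1122940 ± 532527 in vivo (SD, n = 8) and 785644 ± 194813 in YY (SD, n = 11). All 16 oocyte markers were at 10 CPM or more on average in both groups. The CPM of markers in this paragraph are counts scaled to the library total, without TMM. The CPM of genes and gene lists in the later paragraphs are counts scaled to library size by TMM. Of 20 granulosa cell markers 3 reached a mean of 10 CPM in either group, Amh and Foxl2 had no count in either, and the list summed to 67.2 to 150 CPM in vivo and 72.7 to 127.5 CPM in YY. The markers of theca and stroma summed to 57.2 to 93.0 CPM in vivo and 29.6 to 84.5 CPM in YY, and those of immune cells to 14.1 to 33.4 and 3.52 to 20.8 CPM. Those of endothelium and blood summed to 24.5 to 86.3 and 41.04 to 105 CPM, with all 4 hemoglobin genes and Cdh5 at 0, and those of the ovarian surface epithelium to 1.58 to 34.2 and 1.51 to 15.1 CPM. In 3 of these lists 1 gene made up most of the sum. The means in vivo and in YY were 68.1 and 50.1 CPM for Myh11 (theca and stroma), 16.8 and 9.08 CPM for C1qb (immune) and 52.8 and 57.6 CPM for Pecam1 (endothelium). The share of counts in the 50 highest genes was 18.8% ± 0.356 in vivo and 17.6% ± 0.520 in YY (two-sided exact permutation test, adjusted p = 0.000185 over 7 library measures), and none of the other 6 measures passed. By the same test total counts passed without in vivo replicate 5 (adjusted p = 0.0197). Genes detected and the ribosomal protein share passed without in vivo replicate 6 (adjusted p = 0.0326 and 0.0264). In vivo replicate 6 (library S74), the deepest of the 19, stood apart: without it the calls below rose from 866 to 1216.

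Libraries also fell into patterns by 7 genes on 7 chromosomes that were nearly off in some libraries and high in others (Oog3, Gm4350, Tmem14c, Pramel48, Mtfr2, Bfsp1 and Rhbdf1). YY held 3 patterns, in 2, 3 and 6 libraries, and in vivo young held 3, in 2, 4 and 2 libraries. A single pattern occurred in both groups, in 2 libraries of each. The YY library numbers ran from S198 to S202 (5 libraries) and from S225 to S231 (6 libraries), and the in vivo numbers were S17, S18 and S71 to S77, so numbering and group cannot be told apart. The labels call the libraries biological replicates but name no animal, and p-values measure the spread between these libraries only.

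Of 8749 genes tested 866 differed (9.90% of the genes, adjusted p under 0.05, edgeR quasi-likelihood test with Benjamini-Hochberg adjustment, used for every adjusted p of a gene below). In YY 338 were higher (3.86%) and 528 were lower (6.03%), and 166 of these changed at least 2-fold (1.90%), 75 upward (0.857%) and 91 downward (1.04%). The median log2 fold change of all genes was 0.02. Levels are shares of a library, so less RNA of a gene and more RNA of the others in an oocyte cannot be told apart. All 11 YY libraries lay above all 8 in vivo libraries for 9 genes (0.103%) and below them for 47 (0.537%). With the libraries of each pattern summed, which leaves 3 samples on either side, 28 genes were called, and all 28 were among the 866. In each gene list below the share lower or higher is to be read against 6.03% and 3.86%. For lists of abundant genes the share lower is also to be read against that of genes of like level. It was 13.2% in the highest quintile by mean level, and 39 of 115 genes at 1000 CPM or more fell.

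**Figure D1:**
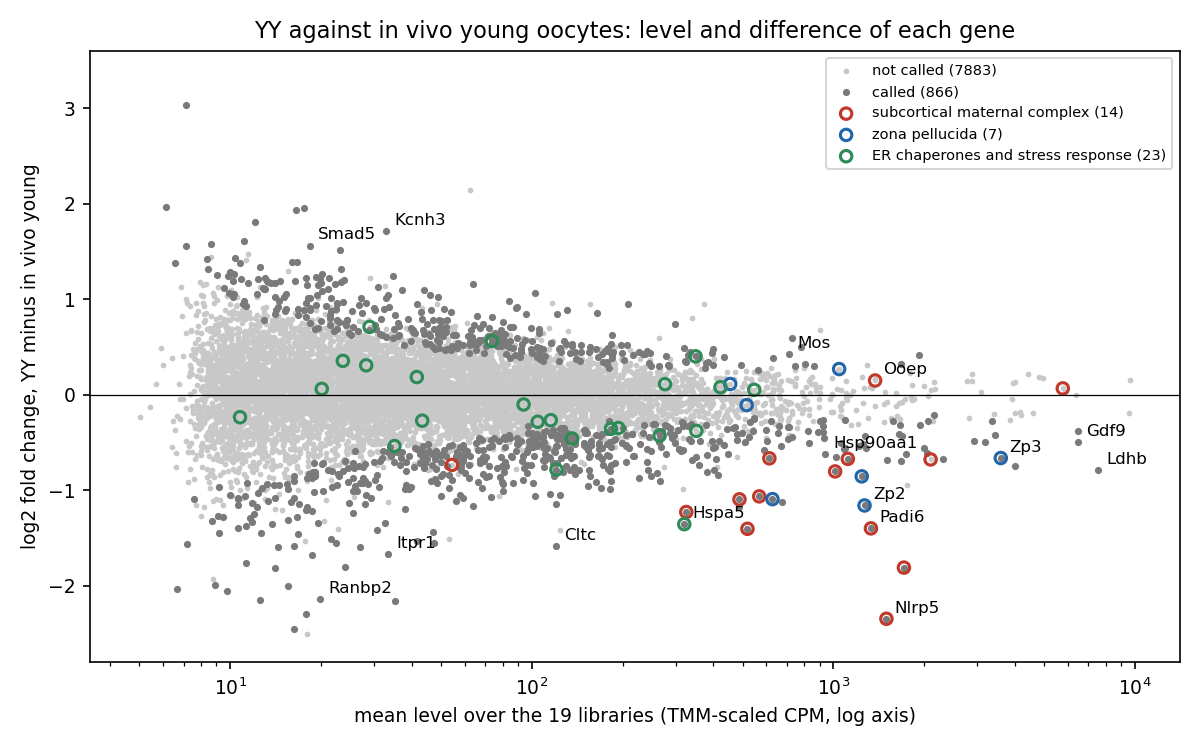
Each point is 1 of 8749 genes, with its mean level over the 19 libraries (TMM-scaled CPM, log axis) against its log2 fold change, YY minus in vivo young. Dark points are the 866 called genes, and rings mark the tested members of 3 lists. The subcortical maternal complex genes other than Ooep and Zbed3 lie below 0, down to -2.34 for Nlrp5.

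Zona pellucida transcripts were lower in YY. Of 7 tested genes of the zona list, 4 fell and none rose, with a median log2 fold change of -0.66. Zp2, whose product sperm bind, ranged from 1557 to 2341 CPM in vivo (median 1857) and from 615 to 1142 CPM in YY (median 816). The groups did not overlap, and the level was 2.23-fold lower in YY (log2 -1.16 ± 0.12 SE, adjusted p = 8.71e-08). Zp3, the partner with which ZP2 builds the zona filaments, was at 3995 to 5283 CPM in vivo (median 4575) and at 2140 to 3456 CPM in YY (median 2907), again without overlap (log2 -0.66 ± 0.09, adjusted p = 1.61e-05). Zp1, which crosslinks the filaments, fell by 0.85 ± 0.15 on the log2 scale with overlapping ranges (adjusted p = 0.000512). Astl encodes ovastacin, the cortical granule protease that cleaves ZP2 after fertilization, and fell by 1.09 ± 0.22 (adjusted p = 0.00195). The 3 Oosp genes, oocyte secreted proteins that lie side by side on chromosome 19, were at log2 0.27, -0.11 and 0.11 and did not pass. The summed list was 9993 to 12058 CPM in vivo and 6011 to 7916 CPM in YY. In the 5 YY libraries S198 to S202 alone, 2 of the 7 genes passed.

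Of the zona list, the promoter of Zp3 is shown because Zp3 is the most abundant of the called members. E-box sites are known to bind FIGLA, the oocyte factor that drives zona genes. The Zp3 window (RefSeq, GRCm38.p6, chr5:135979855-135980154, plus strand, 250 bases before to 50 after the start) holds 4 sites CANNTG, in capitals:
Zp3: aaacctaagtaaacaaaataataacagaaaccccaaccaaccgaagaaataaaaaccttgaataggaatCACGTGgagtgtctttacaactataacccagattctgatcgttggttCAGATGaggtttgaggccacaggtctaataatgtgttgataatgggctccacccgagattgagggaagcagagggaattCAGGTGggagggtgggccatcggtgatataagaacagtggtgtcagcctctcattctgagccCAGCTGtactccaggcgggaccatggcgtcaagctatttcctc
The letters CANNTG, read on both strands, occur in 63.4% of the 6434 promoters of tested genes, 69.0% of those called lower and 56.6% of those called higher.

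The subcortical maternal complex and its partners were lower in YY for most members. Of 14 tested genes, 10 fell and none rose, with a median log2 fold change of -0.93. Nlrp5 (MATER), a scaffold of the complex, was at 1175 to 4658 CPM in vivo (median 2956) and at 192 to 1116 CPM in YY (median 448). No YY library reached the lowest in vivo library, and the level was 5.07-fold lower (log2 -2.34 ± 0.34, adjusted p = 7.90e-05). Padi6, a peptidyl arginine deiminase-like protein of the oocyte's cytoplasmic lattices, ranged from 1713 to 2567 CPM in vivo (median 2105) and from 536 to 1291 CPM in YY (median 796). It did not overlap either (log2 -1.40 ± 0.17, adjusted p = 7.73e-06). Nlrp14, a maternal factor of early cleavage, went from 1896 to 4146 CPM in vivo (median 2774) to 271.9 to 1751 CPM in YY (median 828, log2 -1.81 ± 0.32, adjusted p = 0.000709). Tle6, a core subunit, fell by 0.67 ± 0.15 (adjusted p = 0.00527), with ranges that overlapped.

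The members did not move together. Ooep, the small core subunit that binds the other two, was at 998 to 1744 CPM in vivo and 1103 to 1907 CPM in YY (log2 0.15 ± 0.10, adjusted p = 0.384). Khdc3 (FILIA) was at 2.02 to 138 CPM in vivo and 11.5 to 83.8 CPM in YY (log2 -0.73 ± 0.54, adjusted p = 0.425), a spread that leaves it undetermined. Zbed3, a peripheral member, was at log2 0.07 ± 0.25 (adjusted p = 0.902). Nlrp4f was at log2 -0.68 ± 0.24 (adjusted p = 0.0703). The summed list was 18621 to 29047 CPM in vivo and 11241 to 18022 CPM in YY, without overlap. The count of lower genes was 10 or 11 whichever library was left out. It was 5 with YY libraries S198 to S202 alone, 11 with S225 to S231 alone, and 0 with the libraries of a pattern summed.

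The list holds many genes of the Nlrp family, which lies mostly in clusters on mouse chromosome 7 and is expressed mainly in oocytes. Over the whole family, a grouping chosen after its values were seen, 13 members were tested, all 13 were below 0, and 10 passed. Nlrp2, Nlrp9a, Nlrp9b and Nlrp4b fell, with log2 fold changes of -1.23 ± 0.27, -1.40 ± 0.29, -1.06 ± 0.17 and -1.09 ± 0.20. Nlrp9c fell by 0.80 ± 0.12, Nlrp4e by 0.78 ± 0.14 and Nlrp4a by 0.66 ± 0.16. Nlrp genes are similar in sequence, and the labels do not say how reads shared between copies were counted, which makes the split among them uncertain.

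A second oocyte family, also chosen after its values were seen, is the cluster of Fbxw genes on chromosome 9, whose F-box proteins belong to ubiquitin ligases. Of 20 tested Fbxw genes 15 fell and none rose, and all 15 lie on chromosome 9. Fbxw24 was at 4349 to 5805 CPM in vivo (median 5336) and at 2062 to 4266 CPM in YY (median 3069), without overlap (log2 -0.74 ± 0.12, adjusted p = 5.71e-05). Fbxw23 fell by 0.91 ± 0.13 and Fbxw15 by 0.48 ± 0.12. Fbxw4 and Fbxw7, widely expressed members on other chromosomes, were at log2 0.07 ± 0.16 and -0.30 ± 0.26 and did not pass. The family sum had a mean of 21718 CPM in YY libraries S198 to S202 and 14416 CPM in S225 to S231, against a median of 27601 CPM in vivo. With S198 to S202 alone 3 of the 20 passed, and with pattern sums 0. Among the Oog and Pramel genes, a leucine-rich repeat family of the oocyte, 3 of 18 fell, led by Oog4 (5 without YY replicate 3 and 1 with the pattern as a random block), at 732 to 1322 CPM in vivo and 293 to 707 CPM in YY (log2 -1.13 ± 0.16, adjusted p = 1.73e-05).

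Of 7 tested secreted oocyte factors and their processing enzymes 3 fell and none rose, and the median log2 fold change was 0.00. Gdf9 was at 5885 to 10206 CPM in vivo (median 7150) and 4247 to 7396 CPM in YY (median 5218), with overlap (log2 -0.49 ± 0.11, adjusted p = 0.00319). Bmp15, its X-linked paralog, fell by 0.42 ± 0.11 (adjusted p = 0.00880) and Rspo2, an activator of WNT signalling, by 0.37 ± 0.10 (adjusted p = 0.0164). Fgf8, with which the oocyte stimulates glycolysis in cumulus cells, was at log2 0.47 ± 0.16 (adjusted p = 0.0543). Gdf9, Bmp15 and Rspo2 were the called members. Bmp15 and Rspo2 did not pass with YY libraries S198 to S202 alone or with in vivo libraries S71 to S77 alone, and none of the 3 passed with pattern sums. At the contact with granulosa cells 3 of 17 genes fell and 1 rose. Kit, the receptor for granulosa Kit ligand, fell by 0.62 ± 0.15 (adjusted p = 0.00508), from 136 to 189 CPM in vivo to 77.1 to 144 CPM in YY. Ctnnb1 (beta-catenin), which anchors cadherins, rose by 0.64 ± 0.19 (adjusted p = 0.0227). Gja4, the connexin of the oocyte's gap junctions, was at log2 0.24 ± 0.10 (adjusted p = 0.140).

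Of 23 tested genes of the endoplasmic reticulum (ER) list, which holds its chaperones and its stress response, 5 fell and 2 rose, and 10 of the 23 were above 0. Hspa5 (BiP), the main ER chaperone and the sensor that holds the stress receptors in check, was at 274.7 to 826 CPM in vivo (median 444) and at 104 to 269.4 CPM in YY (median 200). The groups did not overlap, and the level was 2.55-fold lower (log2 -1.35 ± 0.21, adjusted p = 0.000108). Hsp90b1 (GRP94) fell by 0.78 ± 0.14 (adjusted p = 0.000301) and Calr (calreticulin), a lectin chaperone that stores calcium, by 0.43 ± 0.11 (adjusted p = 0.00913). The disulfide isomerases Pdia3 and P4hb fell by 0.46 ± 0.14 and 0.36 ± 0.11. Derl2, a channel component of ER-associated degradation, and Ern1 (IRE1), a stress receptor, rose by 0.56 ± 0.15 and 0.40 ± 0.13. The stress-induced transcription factors Ddit3 (CHOP) and Atf4 were at log2 0.29 ± 0.16 and -0.13 ± 0.21 and did not pass. Calr did not pass with YY libraries S225 to S231 alone. The list had 3 lower genes with the pattern as a random block (the fit that estimates a correlation between libraries of 1 pattern), 3 without in vivo replicate 1, 2 or 7, 2 with in vivo libraries S71 to S77 alone and 0 with pattern sums.

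Chaperone genes of the ER share an ER stress element, the site at which ATF6 and XBP1 are known to act with NF-Y. The letters CCAAT and CCACG with 9 bases of any kind between them, searched on both strands, occurred in 17 of 6434 promoters (0.264%) and in 9 of the 19 ER list promoters (47.4%). Of the 17 genes 3 were called, all lower: Hspa5, Hsp90b1 and Calr. Their windows (RefSeq, GRCm38.p6, 250 bases before to 50 after the start) are shown because they hold that element, in capitals (2 copies in Hsp90b1). The coordinates are chr2:34771840-34772139 on the plus strand for Hspa5, chr10:86705395-86705694 on the minus strand for Hsp90b1 and chr8:84846882-84847181 on the minus strand for Calr.
Hspa5: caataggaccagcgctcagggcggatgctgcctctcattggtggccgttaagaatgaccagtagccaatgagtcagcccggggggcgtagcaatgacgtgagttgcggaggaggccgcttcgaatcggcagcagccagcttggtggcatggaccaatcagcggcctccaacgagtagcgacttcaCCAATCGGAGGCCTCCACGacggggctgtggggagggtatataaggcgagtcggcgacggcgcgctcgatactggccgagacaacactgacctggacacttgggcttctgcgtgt
Hsp90b1: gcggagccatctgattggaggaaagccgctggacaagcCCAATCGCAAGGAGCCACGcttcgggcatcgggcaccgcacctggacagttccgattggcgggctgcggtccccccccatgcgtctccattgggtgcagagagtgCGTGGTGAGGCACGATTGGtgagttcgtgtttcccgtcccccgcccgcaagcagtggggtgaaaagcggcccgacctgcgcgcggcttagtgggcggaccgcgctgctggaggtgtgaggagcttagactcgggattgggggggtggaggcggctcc
Calr: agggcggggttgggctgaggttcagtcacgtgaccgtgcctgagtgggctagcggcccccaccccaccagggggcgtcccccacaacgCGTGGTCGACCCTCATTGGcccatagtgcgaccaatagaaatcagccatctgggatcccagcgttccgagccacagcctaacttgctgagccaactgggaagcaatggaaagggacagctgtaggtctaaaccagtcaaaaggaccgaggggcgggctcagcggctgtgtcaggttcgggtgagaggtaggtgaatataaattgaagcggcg
The other 14 genes with the element ran from log2 -0.95 for Tdrd9 to 0.71 for Syvn1, and over the 17 the median was -0.13, with 10 below 0 and 7 above. Canx (calnexin), which holds it, was at log2 -0.38 ± 0.13 (adjusted p = 0.0621). The called Pdia3 and P4hb do not have these letters in the window.

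In the cytosol 8 of 27 heat shock and folding genes fell and 1 rose. Hsp90aa1, the inducible HSP90, was at 1012 to 1363 CPM in vivo (median 1155) and at 608 to 839 CPM in YY (median 773), without overlap (log2 -0.62 ± 0.08, adjusted p = 3.16e-06). Hsp90ab1, the constitutive form, ranged from 368 to 544 CPM in vivo and from 182 to 355 CPM in YY, also without overlap (log2 -0.74 ± 0.11, adjusted p = 2.19e-05). These are the HSP90 proteins that fold kinases and steroid receptors. Subunits of the TRiC ring, which folds actin and tubulin, made up 5 of the lower genes: Tcp1 fell by 0.80 ± 0.15, Cct7 by 0.56 ± 0.19, Cct2 by 0.46 ± 0.11, Cct8 by 0.46 ± 0.14 and Cct5 by 0.38 ± 0.12. Cdc37, the kinase adaptor of HSP90, rose by 0.55 ± 0.15. Hspa8, the constitutive HSP70, and Hsf1, the heat shock factor, were at log2 -0.12 ± 0.17 and 0.22 ± 0.14 and did not pass. Both HSP90 genes passed under all 20 alternatives and without any 1 library. The count of lower genes in the list was 2 with YY libraries S198 to S202 alone, 12 with S225 to S231 alone, 4 with in vivo libraries S71 to S77 alone, 4 with the pattern as a random block, 3 with a replicate block and 2 with pattern sums. It was 4 without in vivo replicate 3, and 5 without in vivo replicate 1, 2 or 7 or without YY replicate 6, 7, 8, 10 or 11.

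Genes of chromosome segregation fell in part. In the spindle and cortical actin list 8 of 31 fell and none rose, and in the kinetochore list 5 of 29 fell and none rose. Cenpf, a large kinetochore and nuclear matrix protein, was at 584 to 918 CPM in vivo (median 715) and at 198.7 to 463 CPM in YY (median 270), without overlap (log2 -1.18 ± 0.14, adjusted p = 2.20e-06). Ckap5 (chTOG), the microtubule polymerase, was at 192 to 345 CPM in vivo and 91.9 to 152 CPM in YY, without overlap (log2 -0.98 ± 0.13, adjusted p = 2.51e-06). Tacc3, its partner at spindle poles, fell by 0.69 ± 0.14 and the midzone protein Prc1 by 0.90 ± 0.13. The checkpoint kinase Bub1 fell by 0.85 ± 0.18, the scaffold Knl1 by 0.65 ± 0.13 and the motor Cenpe by 0.48 ± 0.09. The spindle assembly factor Tpx2 was at log2 -0.10 ± 0.10 (adjusted p = 0.561). Of 22 genes of cohesin and condensin 4 fell, among them the condensin subunit Smc4, at 931 to 1283 CPM in vivo and 643 to 925 CPM in YY without overlap (log2 -0.45 ± 0.08). With YY libraries S198 to S202 alone 3 spindle and 3 kinetochore genes were lower. The random block for the pattern left 5 and 4, and pattern sums left 1 and 1. The spindle count was also 4 with in vivo libraries S71 to S77 alone, with a replicate block or without in vivo replicate 2, and 5 without in vivo replicate 1 or YY replicate 7, 10 or 11.

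Ranbp2, the SUMO ligase of the nuclear pore, was among the largest falls. It was at 24.6 to 43.9 CPM in vivo (median 38.7) and at 3.41 to 15.7 CPM in YY (median 7.29), a 4.41-fold difference without overlap (log2 -2.14 ± 0.25, adjusted p = 7.89e-07). Tpr, of the pore's basket, fell by 0.92 ± 0.13, while Nup62, of its central channel, rose by 0.49 ± 0.13. Over the 27 nuclear pore genes, grouped after their values were seen, 4 fell and 1 rose. Cltc, the clathrin heavy chain, which coats endocytic vesicles and stabilises spindle fibres, had the smallest p of all genes. It was at 130 to 237 CPM in vivo (median 205) and at 38.6 to 86.7 CPM in YY (median 62.5), without overlap (log2 -1.58 ± 0.16, adjusted p = 2.20e-08). Cltc, Ranbp2, Cenpf and Ckap5 passed under all 20 alternatives, pattern sums included.

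In the calcium and zinc list 2 of 20 genes fell and none rose. Itpr1, the inositol trisphosphate receptor through which the fertilised egg releases calcium, was at 39.1 to 81.6 CPM in vivo (median 54.4) and at 10.1 to 30.2 CPM in YY (median 15.7). The groups did not overlap, and the level was 3.17-fold lower (log2 -1.67 ± 0.21, adjusted p = 2.20e-06). Plcb1, a phospholipase that makes inositol trisphosphate, fell by 0.72 ± 0.17. Of the genes that govern meiotic resumption through CDK1, 5 of 30 fell and 2 rose. With the pattern as a random block 2 fell and 1 rose, with YY libraries S198 to S202 alone 2 fell and 1 rose, and without in vivo replicate 8 the lower count was 3. Mos, the kinase that holds the egg at metaphase II, was at 543 to 633 CPM in vivo (median 603) and at 699 to 850 CPM in YY (median 817), without overlap (log2 0.42 ± 0.07, adjusted p = 0.000130). Cdc25a rose by 0.55 ± 0.18 (adjusted p = 0.0461). Fbxo5 (EMI1), an inhibitor of the anaphase promoting complex, fell by 0.57 ± 0.13 and Bora, the Aurora A cofactor, by 0.59 ± 0.15. Cdk1, Ccnb1, Wee2 and Cdc25b were at log2 -0.10 ± 0.11, -0.11 ± 0.12, -0.29 ± 0.13 and -0.06 ± 0.23 and did not pass. None of 11 tested genes of the cAMP and cGMP arrest passed in edgeR (2 at an unadjusted p under 0.05, 0 in DESeq2 and 2 in limma voom).

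**Figure D2:**
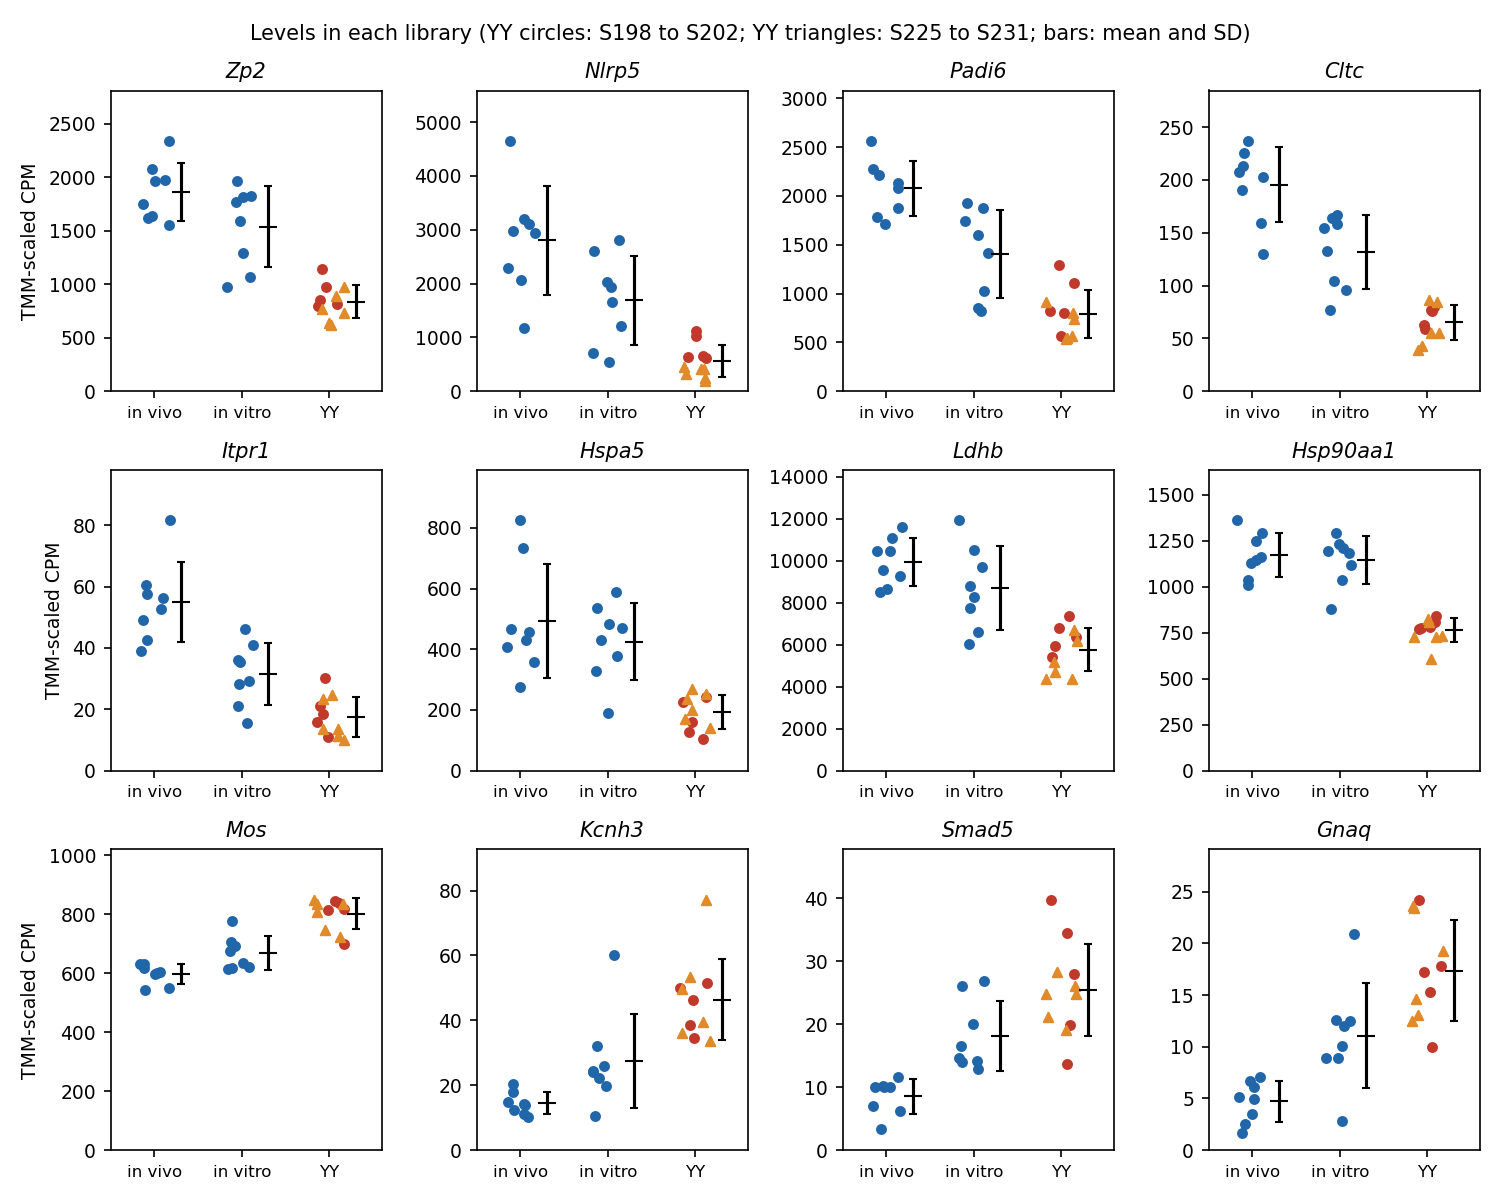
Points are single libraries of the 8 in vivo, 8 in vitro and 11 YY oocytes, on a linear axis of TMM-scaled CPM from 0, for 12 genes. YY circles are libraries S198 to S202 and triangles S225 to S231, and bars give mean and SD. The 11 YY points lie below the 8 in vivo points for Zp2, Nlrp5, Padi6, Cltc, Itpr1, Hspa5, Ldhb and Hsp90aa1, and above them for Mos, Kcnh3, Smad5 and Gnaq.

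Of the genes of glucose use 3 of 36 fell and 1 rose, close to the share of all genes. Ldhb, the lactate dehydrogenase subunit of the oocyte, is among its most abundant messages. It was at 8509 to 11607 CPM in vivo (median 10002) and at 4376 to 7393 CPM in YY (median 5960), without overlap (log2 -0.79 ± 0.11, adjusted p = 1.28e-05). Ogdh, of the citric acid cycle, fell by 1.41 ± 0.23 and G6pdx, the entry to the pentose phosphate pathway, by 0.41 ± 0.09. Pdha1, the pyruvate dehydrogenase subunit without which oocytes cannot mature, was at log2 0.10 ± 0.19 (adjusted p = 0.787). Mitochondrially encoded genes varied widely, and none of 11 passed in edgeR (2 at an unadjusted p under 0.05, 1 higher in DESeq2 and 1 in limma voom). With YY libraries S225 to S231 alone 6 of the 11 were called higher (median log2 fold change 0.97), and with S198 to S202 alone none was called (median -0.94). Their share of the counts averaged 0.133% in YY libraries S198 to S202, 0.387% in S225 to S231 and 0.204% in vivo. Of 74 nuclear genes of oxidative phosphorylation 2 rose and none fell, Atp5g3 by 1.02 ± 0.25 and Atp5d by 0.64 ± 0.21. Of 73 mitochondrial ribosomal proteins 3 rose and none fell (Mrpl12, Mrps26 and Mrpl36, by 0.48 to 0.80). Both shares are near or below the 3.86% of all genes, and 0 and 1 passed in the fit with a random block for the pattern. Without in vivo replicate 6 the counts were 4 and 6, and without in vivo replicate 3 they were 1 and 1. The oxidative phosphorylation count was also 1 without in vivo replicate 2, 7 or 8 or YY replicate 3, 7, 8 or 10.

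Among regulators of stored messages, 2 rose and 2 fell of 24 in translation and storage, and 2 rose and none fell of 24 in decay. Among those of chromatin, 1 rose and 1 fell of 12 in DNA methylation, and 1 rose and 2 fell of 41 histone modifiers. Of all genes tested 3.86% rose and 6.03% fell. Dazl, an RNA-binding activator of maternal messages, rose by 0.50 ± 0.10 (adjusted p = 0.00101), from 508 to 842 CPM in vivo to 752 to 1088 CPM in YY with overlap. Cpeb4, which extends poly(A) tails in meiosis, rose by 0.70 ± 0.20 and Cpeb1, the factor before it, fell by 0.52 ± 0.16. Btg4, the adaptor for deadenylation, was at log2 0.22 ± 0.07 (adjusted p = 0.0544). Tet3, which oxidises methylated cytosine in the zygote, rose by 0.60 ± 0.14 (adjusted p = 0.00623), with a mean of 651 CPM in YY libraries S198 to S202 and 1022 CPM in S225 to S231. It did not pass with S198 to S202 alone. Kdm1b, the histone demethylase needed to set maternal imprints, fell by 1.05 ± 0.25 (adjusted p = 0.00867). Dnmt1 and Dnmt3l were at log2 -0.30 ± 0.13 and -0.33 ± 0.12 and did not pass.

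The genes that rose without overlap included several of low level in vivo. Kcnh3, a voltage-gated potassium channel, was at 10.3 to 20.5 CPM in vivo (median 14.1) and at 33.7 to 77.2 CPM in YY (median 46.3), a 3.28-fold difference without overlap (log2 1.71 ± 0.24, adjusted p = 1.14e-05). Smad5, a transducer of BMP signals, was at 3.41 to 11.6 CPM in vivo (median 10.0) and at 13.7 to 39.8 CPM in YY (median 24.8), without overlap (log2 1.56 ± 0.24, adjusted p = 3.97e-05). Gnaq, the G protein that activates phospholipase C beta, was at 1.70 to 7.05 CPM in vivo (median 5.05) and at 9.96 to 24.2 CPM in YY (median 17.3), without overlap (log2 1.81 ± 0.31, adjusted p = 0.000138). Lrp5, a WNT coreceptor, rose by 1.39 ± 0.26 and Fam131a by 1.21 ± 0.23, both without overlap. With overlap, the polycomb protein Cbx2 rose by 1.10 ± 0.18, Fam222a by 1.93 ± 0.32, the RNA-binding protein Ewsr1 by 1.16 ± 0.22, the protease inhibitor Spint2 by 1.04 ± 0.20 and the palmitoyl transferase Zdhhc18 by 1.11 ± 0.23. Akt1s1 (PRAS40), an inhibitor of mTORC1, and the actin-binding Ppp1r9b (spinophilin) rose by 1.96 ± 0.42 and 1.58 ± 0.41 from in vivo libraries of which some had no count. Lrp5, Fam131a and Fam222a did not pass with YY libraries S198 to S202 alone.

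Among the largest falls outside the lists were Zfp473, a zinc finger protein, at 28.1 to 96.6 CPM in vivo and 5.68 to 22.5 CPM in YY without overlap (log2 -2.16 ± 0.32), and Lcp1, the actin bundler plastin, with overlap (log2 -2.29 ± 0.42). The axon guidance receptor Robo2 fell by 2.05 ± 0.51 and the claudin-like Cldn34b2 by 1.11 ± 0.17, both with overlap. Lcp1 is also high in blood cells. The immune marker C1qb moved with it, at 9.07 to 31.5 CPM in vivo and 0 to 18.7 CPM in YY (log2 -0.98 ± 0.32, adjusted p = 0.0439). Over all libraries of a group, Cd68 had 42 counts in vivo and 22 in YY, and Csf1r had 3 and 1. Ptprc had 3 and 0, Fcer1g 2 and 0 and Lyz2 1 and 0, while Cd74 had 1 and 1 and Cd3e 0 and 1. Adgre1, Tyrobp and C1qa had no count in either group. The part of Lcp1 and of the immune markers in the result was not tested. Myh11, the only 1 of 13 theca and stroma markers expressed enough to test, fell by 0.53 ± 0.17 (adjusted p = 0.0445). Of the other smooth muscle markers in that list, Acta2 had 4 counts in all in either group and Tagln 0.

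In the interferon list 3 of 10 genes rose and none fell. Irf1, an interferon-induced transcription factor, rose by 0.44 ± 0.11 (adjusted p = 0.00694), Nfkbia, the inhibitor of NF-kappaB, by 0.56 ± 0.15 and H2-K1, an MHC class I chain, by 1.07 ± 0.35. With YY libraries S198 to S202 alone 1 interferon gene and none of the hypoxia genes passed. Hif1a, the hypoxia factor, and its target Bhlhe40 rose by 0.43 ± 0.11 and 0.96 ± 0.21, the 2 called of 12. Cholesterol genes had 2 of 21 called, Stard4, a sterol carrier (0.76 ± 0.18), and Msmo1, a synthesis enzyme (0.68 ± 0.19). None of 20 ATF4 and CHOP genes passed in edgeR (4 at an unadjusted p under 0.05, 1 higher in DESeq2 and 2 higher in limma voom). None of 57 ribosomal protein genes passed (5 at an unadjusted p under 0.05, 0 in DESeq2 and 2 in limma voom). Only 2 of 27 immediate early genes were expressed enough to test, and neither passed (1 at an unadjusted p under 0.05, 0 in DESeq2 and 0 in limma voom). In the p53 and repair list 6 of 31 fell and none rose, among them the break sensor Rad50 (-0.56 ± 0.11) and DNA ligase Lig1 (-0.87 ± 0.21). Among aminoacyl tRNA synthetases, grouped after their values were seen, 6 of 25 fell and 1 rose. The lower count was 3 without in vivo replicate 2, 3 or 7 or YY replicate 10, and 1 with the pattern as a random block, with a replicate block, with in vivo libraries S71 to S77 alone or with YY libraries S198 to S202 alone. Eprs fell by 0.95 ± 0.14 and Farsa rose by 0.51 ± 0.16, neither with overlap.

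**Figure D3:**
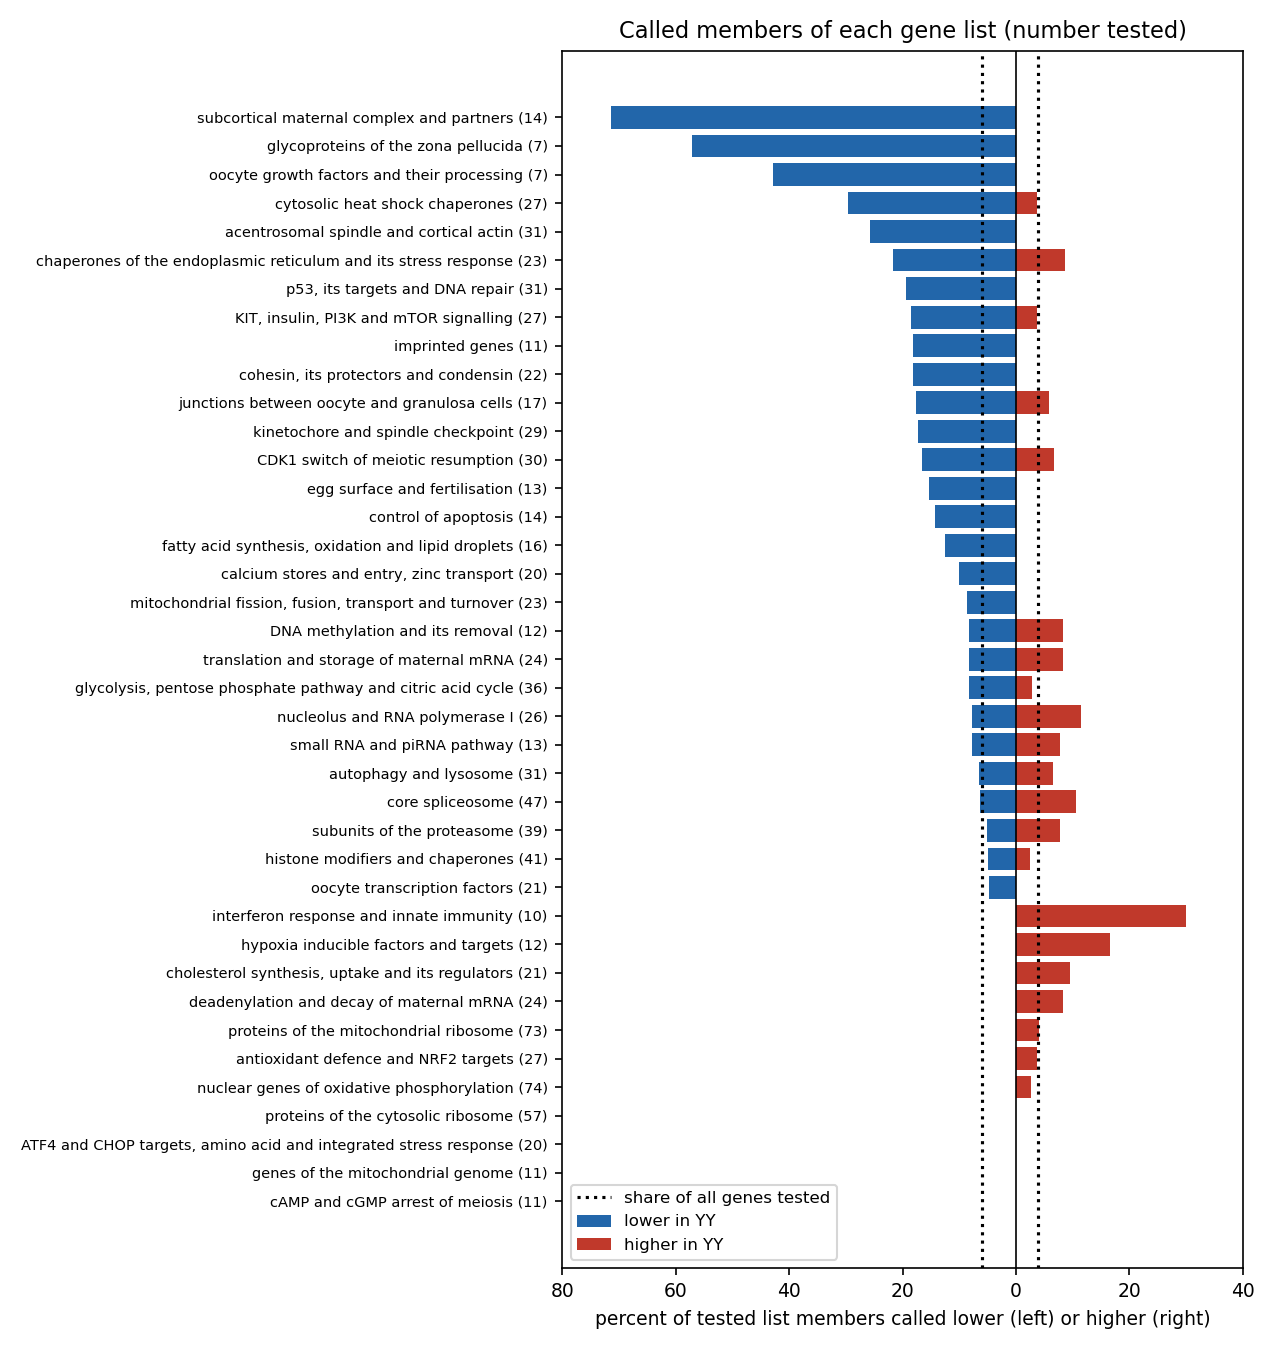
Bars give the percentage of tested members of each list (number in brackets) called lower in YY (left) or higher (right), for lists with at least 7 tested members. Dotted lines mark the shares of all 8749 genes, 6.03% lower and 3.86% higher. Among the bars shown, the subcortical maternal complex has 10 of 14 members lower and the zona list 4 of 7.

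The in vitro young oocytes were cultured, and their labels name no reconstitution. Both differences use the same in vivo libraries, so they are set side by side and not correlated, and the contrast of YY with in vitro young tests whether they differ. In vitro minus in vivo, 12 genes were called (0.137%), 11 higher (0.126%) and 1 lower (0.0114%), and 844 had an unadjusted p under 0.05. YY minus in vitro, 217 were called (2.48%), 68 higher (0.777%) and the others lower (1.70%). Zp2 was at log2 -0.28 ± 0.13 in vitro against -1.16 ± 0.12 in YY, and YY was below in vitro by 0.88 ± 0.12 (adjusted p = 4.42e-05). Hspa5 was at -0.22 ± 0.22 against -1.35 ± 0.21 (difference -1.13 ± 0.21, adjusted p = 0.00335), and Hsp90aa1 at -0.04 ± 0.09 against -0.62 ± 0.08 (difference -0.58 ± 0.08, adjusted p = 4.42e-05). Ranbp2 was at -0.25 ± 0.23 against -2.14 ± 0.25, with an adjusted p of 4.42e-05 for the difference. All 4 genes were thus lower in YY than in in vitro young oocytes by the test. Of the 866 genes called against in vivo young, 160 (18.5%) were also called the same way against in vitro young, beside 2.48% of all genes. These 2 comparisons share the YY libraries. All 12 genes called in vitro minus in vivo were called the same way in YY minus in vivo, which shares the in vivo libraries.

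Nlrp5 was at log2 -0.73 ± 0.36 in vitro and Padi6 at -0.56 ± 0.19, and both differed between YY and in vitro young (adjusted p = 0.00853 and 0.00659). Itpr1 was at -0.79 ± 0.21 in vitro and lower again in YY (adjusted p = 0.0165). For Smad5 (1.05 ± 0.25 in vitro), Gnaq (1.16 ± 0.33) and Cbx2 (0.72 ± 0.19) the YY and in vitro levels did not differ by the test (adjusted p = 0.215, 0.203 and 0.237). Ubtf, the RNA polymerase I factor, and the proteasome subunit Psmd7 passed in vitro as well, at 1.41 ± 0.27 and 0.65 ± 0.14, beside 1.19 ± 0.27 and 0.53 ± 0.14 in YY. Gdf9 was at 0.10 ± 0.12 in vitro and lower in YY than in vitro (adjusted p = 0.00195).

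**Figure D4:**
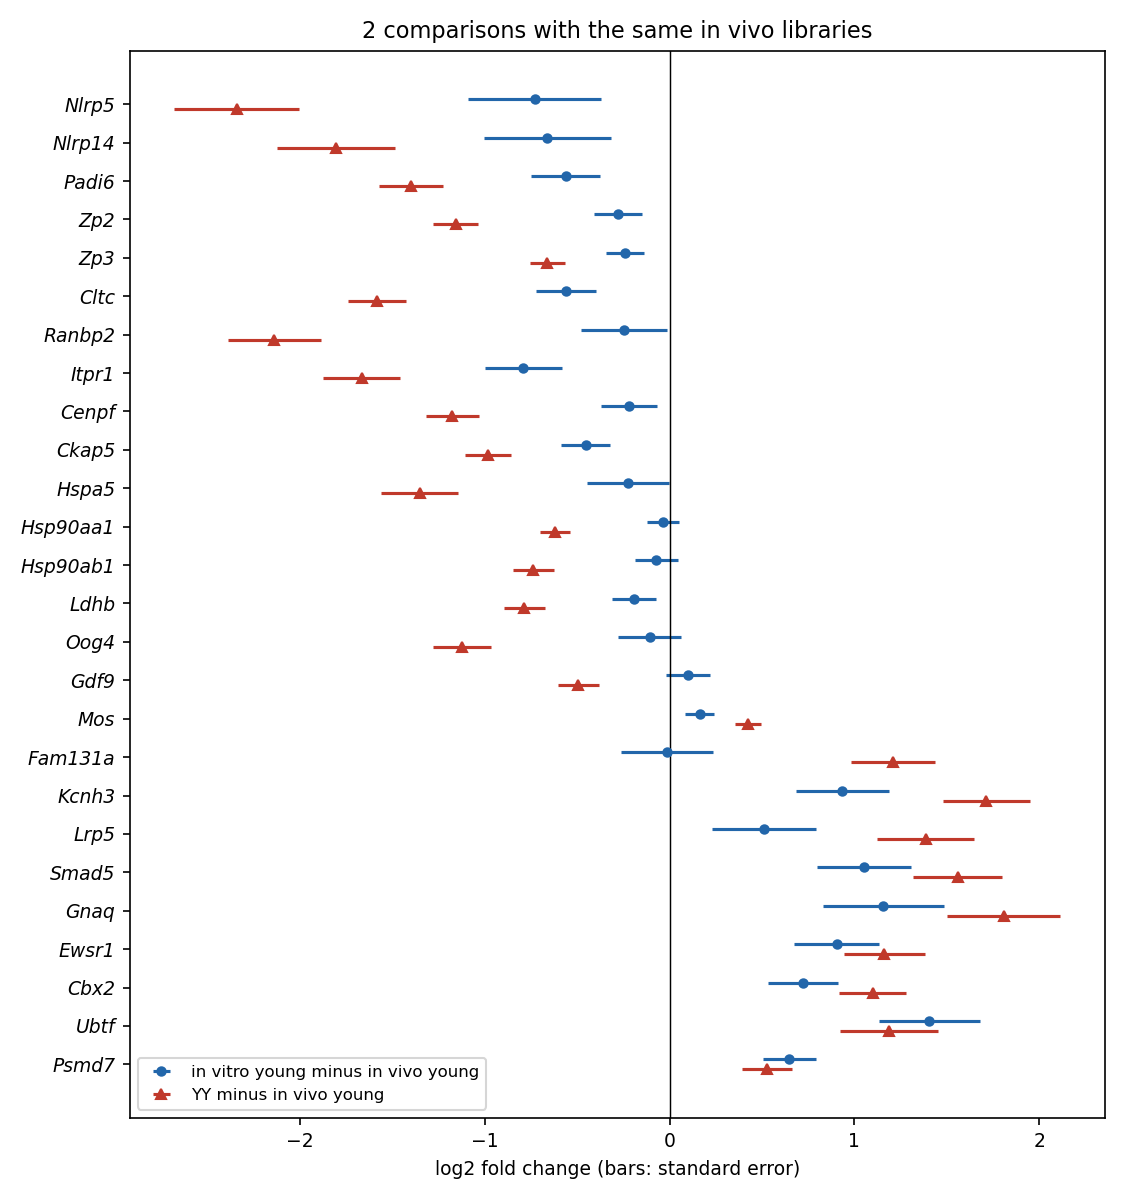
Log2 fold changes of 26 genes against the same 8 in vivo libraries, circles for in vitro young and triangles for YY, with standard errors. Zp2, Ranbp2, Hspa5 and Hsp90aa1 lie near 0 in vitro (-0.28 to -0.04) and farther below in YY, while Ubtf and Psmd7 have like values in both.

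The 2 YY series differed in how far they lay from the in vivo libraries. S198 to S202 alone gave 264 calls and S225 to S231 alone gave 1687. Nlrp5 averaged 808 CPM in the first and 340 CPM in the second, against a median of 2956 CPM in vivo, and passed in both (adjusted p = 0.0180 and 3.54e-05). Zp2 averaged 917 and 769 CPM and Cltc 70.9 and 60.4 CPM, and Kcnh3 44.1 and 48.2 CPM. All 6 libraries of S225 to S231 had a pattern of all-or-nothing genes that no in vivo or in vitro library had. With the 2 YY and 2 in vivo libraries of the shared pattern, 2.88% of the genes were called. In that fit Nlrp5 was at log2 -2.60, Padi6 at -1.57 and Zp2 at -1.28, and each passed. With the pattern as a fixed factor 32 genes passed, Cltc at -1.30 and Kcnh3 at 1.78 among them, and Nlrp5 was at -1.66 (adjusted p = 0.224).

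Calls also went with the level, GC content and length of the transcripts. In the highest quintile of genes by mean level 13.2% fell and 3.95% rose, and in the lowest quintile 1.83% fell and 2.80% rose. Of 115 genes at 1000 CPM or more on average 39 fell and 2 rose. The tested Fbxw and Nlrp genes had median in vivo levels of 1146 and 781 CPM and median GC contents of 44.2% and 41.8%. In the highest quintile by transcript GC content 8.64% rose and 1.83% fell, with a median log2 fold change of 0.19, and in the lowest quintile 2.40% rose and 8.01% fell, with a median of -0.05. The share that fell was 3.71% in the shortest quintile and 8.47% in the longest. Within a library, the median deviation of the highest GC quintile minus that of the lowest was -0.23 to 0.04 (median -0.15) in vivo and -0.06 to 0.31 (median 0.16) in YY, on the log2 scale. After correction for length and GC content 795 genes were called, of which 634 were among the 866. Those at least 2-fold changed numbered 133 in place of 166. The subcortical maternal complex had 10 lower genes and Kcnh3 was at 1.35 in place of 1.71. The part of GC content and length in the results was not tested beyond this correction. Level was not in the correction, and its part was not tested.

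**Figure D5:**
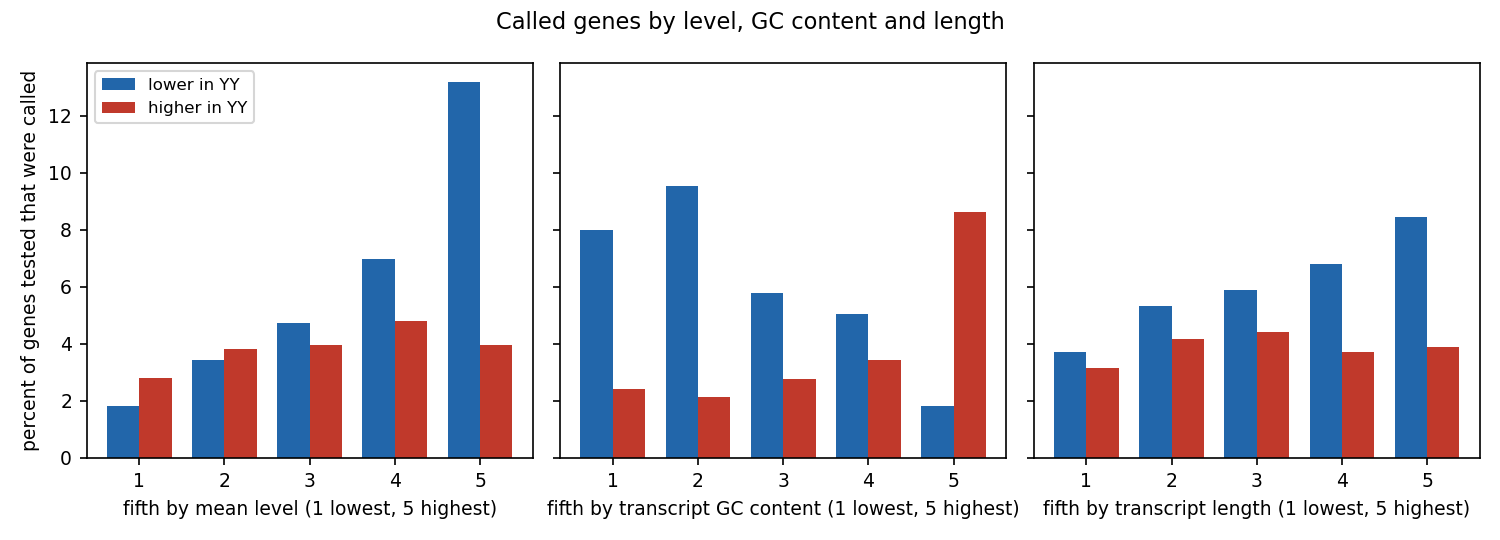
Bars give the percentage of tested genes called lower or higher in YY in each quintile by mean level, transcript GC content and transcript length, on axes from 0. Lower calls reach 13.2% in the highest quintile by level, and higher calls 8.64% in the highest quintile by GC content.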

How the data were processed

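Single mouse oocytes were sequenced after 16 cycles of cDNA and 8 cycles of library PCR, per the labels' protocols. The deposited table holds raw counts per gene for 55357 identifiers and 45 libraries. The submitters' processing notes name STAR 2.7.8a, HTSeq 0.11.0 and the build mm39. The strand setting and the treatment of reads shared by gene copies are not given in the sources used here.

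Groups came from the titles. Genes were filtered with filterByExpr (minimum count 10, minimum total 15), scaled by TMM and tested with edgeR 4.0.16 (quasi-likelihood, robust, R 4.3.3) in 1 fit of the 27 YY, in vivo and in vitro young libraries, with Benjamini-Hochberg adjustment over 8749 genes. A gene was called at an adjusted p under 0.05. CPM values of genes and gene lists are TMM-scaled. The sums of cell type markers, and the marker means given with the library totals, are scaled to total counts only. Fold changes are log2 with standard errors. Library measures were compared by two-sided exact permutation over 75582 regroupings. PCR copies carry no molecular identifiers, so depth sets counting precision only in part. Alternatives included DESeq2 1.42.0, limma 3.58.1 (voom), other filters and scalings, a common depth of 418703 counts, fewer libraries, and the patterns of all-or-nothing genes. Scripts were tested on simulated data.

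Named genes were, per direction, the 10 with the smallest p and the 5 with the largest change among called genes at least 2-fold changed and at least at 10 CPM in the higher group (predicted models left out), plus anchor genes of each list and up to 3 called members of each list. Further list members and the families were picked with their values in view. The members and lists were chosen with earlier results of these data known. Some genes the rule takes are not reported here. Promoters (6434 of 8749 genes matched by symbol, 73.5%) came from RefSeq on GRCm38.p6, a different build from the counts. The motifs were chosen after the data were seen.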

Additional observations from a re-analysis of the deposited data

Results flagged for a closer look

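Of 150 sets of values examined, each for 1 gene or library measure, 15 held 1 in vivo library that stood apart by Dixon's test. Chance alone does this in about 1 of 20 independent sets. The sets share the same libraries and are not independent, so their count cannot be set against that rate. Most of the outlying values came from in vivo replicate 6, the deepest library. Its share of ribosomal protein counts was 0.499% (0.303% to 0.385% in the others). It was high for Oosp2, an oocyte secreted protein, at 899 CPM (405 to 586), for the phosphatase Cdc25a at 95.9 CPM (44.8 to 68.2), for the stress receptor Ern1 at 442 CPM (213 to 303), for Tet3 at 834 CPM (452 to 592) and for the mitochondrial ribosomal protein Mrpl36 at 27.1 CPM (11.2 to 18.3). It was low for the spindle protein Tacc3 at 1074 CPM (1894 to 2373), for the TRiC subunits Tcp1 at 124 CPM (230 to 285) and Cct5 at 733 CPM (929 to 1079), and for Cpeb1 at 785 CPM (1416 to 1967).

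In vivo replicate 5, the shallowest library, was high for the summed granulosa markers at 150 CPM (67.2 to 104) and for Cpeb4 at 115 CPM (41.3 to 58.0). Replicate 2 was high for the demethylase Kdm1b at 369 CPM (121 to 211), and replicate 8 for the sterol carrier Stard4 at 91.8 CPM (42.5 to 61.5). Replicate 3 was low for Izumo1r (JUNO), the sperm receptor, at 131 CPM (158 to 182).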

How the results depend on the processing

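YY against in vivo young called 9.90% of the genes tested. The share was 8.84% at one depth, 5.57% with in vivo libraries S71 to S77 alone, 2.93% with YY libraries S198 to S202 alone and 18.9% with S225 to S231 alone. It was 4.65% with the pattern of all-or-nothing genes as a random block, 0.366% (32 genes) as a fixed factor, 0.32% with the libraries of a pattern summed (28 genes, 979 at an unadjusted p under 0.05) and 2.88% with the shared pattern alone. Leaving out 1 library gave 6.96% (616 genes, without in vivo replicate 2) to 13.8% (1216 genes, without in vivo replicate 6). The share called at least 2-fold, 1.90%, was 1.18% without a filter, 1.47% at one depth, 1.04% and 4.67% with either YY series, and 1.14%, 0.229% and 0.217% with the pattern as random block, summed and fixed, or 1.55% to 2.65% without 1 library. Without a filter 251 genes rose and 588 fell, 70.1% lower.

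The 217 calls of YY against in vitro young became 404 in DESeq2, 558 in limma voom, 378 with all 45 libraries, 67 with genes detected as a covariate, 99 and 803 with either YY series, 119 (random block), 0 (summed), 5 (fixed) and 40 (shared pattern), or 158 to 284 without 1 library. The 12 calls of in vitro against in vivo young became 44 in DESeq2, 35 in limma voom, 29 without a filter, 29 with all 45 libraries, 0 with the covariate, 22 and 31 with either YY series, 29 (random block), 0 (summed, 564 at an unadjusted p under 0.05), 33 (fixed), 68 (shared pattern) and 5 without the shallowest libraries, or 0 to 18 without 1 library. The shared pattern held 1 in vitro young library. Both of its counts in this paragraph rest on that library, and no conclusion is drawn from them. The cause of the shifts between settings was not tested beyond fewer libraries.

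Replicate numbers did not pair the libraries: 3 of 8 same-numbered pairs correlated above 0.1 (-0.0854 to 0.302). With a replicate block YY against in vivo young called 4.90% of the genes (429), and the comparisons with in vitro young gave 115 (YY) and 6 calls (in vivo).

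With YY libraries S225 to S231 alone, YY minus in vivo was 366 genes detected, 0.183 percentage points of mitochondrial and 0.0851 of ribosomal protein counts, and -40.2 CPM of other somatic markers, each past the exact permutation test. With all YY and in vivo libraries the same differences were 236 genes, 0.0676, 0.0513 and -28.0, and none passed. Without 1 library of that full set they ran from 186 to 286 genes, 0.0414 to 0.0877, 0.0427 to 0.0711 and -33.9 to -21.8. The difference in total counts ran from -437899 to -183145. That of the 50 highest genes ran from -1.30 to -1.08 and that of granulosa markers from -1.82 to 10.1.

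Of the 866 called genes 45 changed sign with the pattern as a fixed factor, 28 with the shared pattern alone and 1 with YY libraries S198 to S202 alone, and none in the other alternatives or without any 1 library. Among the genes named in the text 5 values reversed: with the pattern as a fixed factor Ctnnb1 (-0.005666), Cct5 (0.04751), Cpeb1 (0.04046) and Ern1 (-0.02496), and with the shared pattern alone Ubtf (-0.01834). Of all 9642 values of named genes and list counts under alternatives, 644 gene values lost and 75 gained the call. A further 912 moved, being list counts that shifted beyond a set fold or genes without a call that changed sign. The length and GC correction, the fixed factor, the shared pattern and the omission of the shallowest libraries were chosen after seeing the data. Low genes near 10 CPM rest on few counts at these depths.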
